A study of Mus musculus with 8 samples.

Results

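The Traj genes are the joining (J) segments of the T cell receptor (TCR) alpha chain. They were taken as every row of the deposited count table whose Ensembl ID carries a symbol beginning with Traj in the GENCODE M21 annotation, which made 60 of the 39056 rows. Of these, 51 are annotated as joining genes and 9 as joining pseudogenes. All 60 passed the filter on low counts and were tested, and none was left out. Both groups of samples were CD4+ T cells sorted from combined lymph nodes and spleens after transduced bone marrow had been given to C57BL/6J recipients. The marrow of both groups had the same labelled genotype, CD4-Cre TCRβtg Tcra-/-, that is a CD4-Cre transgene, a TCR beta transgene and no functional Tcra. The groups differed in the retroviral TCR alpha chain, called SAS in 4 libraries (replicates 1, 2, 3 and 6) and ANT in 4 libraries (replicates 1, 3, 4 and 5). Per the series title, the study concerns self-reactive CD4+ clones with a T follicular helper-like state at steady state. The sources used here do not give which part of Tcra the Tcra-/- allele lacks, which J segment each construct contains, what CD4-Cre acts on, the ages, the sorting gate or any T cells the recipients kept of their own. The labels do not tie each library to a mouse of its own, and the spread behind every p-value is that between libraries, which may be technical.

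In a developing T cell, the recombinase joins 1 alpha variable (V) segment to 1 J segment, and the DNA between them, which includes the TCR delta genes, is cut out. J segments upstream of the joined one are lost with it. Those downstream stay in the DNA between the joined exon and the constant gene Trac, are copied into the primary transcript and are removed by splicing. Before any joining, a promoter upstream of the first J segments, known as TEA (T early alpha), drives transcripts through the unrearranged J array, and an enhancer between Trac and the neighbouring gene Dad1 controls the locus.

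The 60 segments spanned 63.8 kb of chromosome 14 (54155005 to 54218842 on the plus strand, mm10), with Traj61 first and Traj1 last, and Traj1 ended 1.68 kb before the start of Trac. No other annotated gene overlapped this span. Segments were 29 to 72 bases long with a GC content of 35.3% to 59.5%. The sequences of 8 segments on which the results turn are given here 5′ to 3′ as annotated in GENCODE M21 (mm10, plus strand): the 4 most upstream ones, the first of the low stretch that follows (Traj57), and Traj40 with the segment on each side of it. Capitals mark the letters TTNGG, then any 4 bases, then GG, where N is any base (overlapping matches are joined). These letters cover the DNA of the Phe-Gly-X-Gly stretch typical of J segments. The match was by letters in any reading frame, so it can also take in sequences that do not encode this stretch.
Traj61 (chr14:54155005-54155076): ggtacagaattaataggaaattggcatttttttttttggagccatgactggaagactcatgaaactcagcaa
Traj60 (chr14:54155933-54155986): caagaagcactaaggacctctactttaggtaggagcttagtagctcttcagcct
Traj59 (chr14:54156133-54156196): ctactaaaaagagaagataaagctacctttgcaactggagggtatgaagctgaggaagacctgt
Traj58 (chr14:54157280-54157342): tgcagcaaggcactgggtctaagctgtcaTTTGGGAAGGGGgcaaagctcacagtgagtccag
Traj57 (chr14:54158505-54158569): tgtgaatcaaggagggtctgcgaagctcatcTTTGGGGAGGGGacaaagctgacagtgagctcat
Traj41 (chr14:54176271-54176325): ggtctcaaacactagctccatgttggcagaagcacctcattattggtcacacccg
Traj40 (chr14:54177921-54177981): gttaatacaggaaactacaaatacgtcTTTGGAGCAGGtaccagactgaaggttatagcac
Traj39 (chr14:54179962-54180024): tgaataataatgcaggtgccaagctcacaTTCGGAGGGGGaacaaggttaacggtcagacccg
The motif was found in 46 of the 60 segments on the sense strand and in 0 on the opposite strand. It was present in 44 of the 51 joining genes (86.3%) and in 2 of the 9 pseudogenes (22.2%). For comparison, 1.46% of the 141515 annotated transcripts held it in their first 60 bases on the sense strand, and 1.16% on the opposite strand. Traj58, Traj57, Traj40 and Traj39 hold it, while Traj61, Traj60, Traj59 and Traj41 do not. Of the 60 segments, 0 shared a stretch of 25 bases with an annotated transcript of another gene on either strand.

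Library totals ranged from 27600959 to 31810799 counts. Levels are given in CPM, counts per 1000000 of the library size scaled by trimmed mean of M values (TMM), and between segments in CPM per kb of annotated length. A read that overlaps a short segment by a few bases still counts for it, so values per kb are high for the shortest ones. Trac, which encodes the constant part of the alpha chain, had 6426, 5618, 5842 and 6688 counts in SAS replicates 1, 2, 3 and 6. In ANT replicates 1, 3, 4 and 5 it had 9418, 8335, 9598 and 8606. Trac was thus well above 0 in all 8 libraries. Since a count per gene can hold reads from both construct and locus, it does not check the Tcra-/- genotype. The CD4+ T cell markers were present throughout (8 of 8 tested), with a summed level of 4617 to 4938 CPM in SAS and 4653 to 5419 CPM in ANT. Markers of other cells were summed likewise. A gene is named as called where its adjusted p in edgeR's quasi-likelihood test of SAS against ANT was under 0.05. Of the CD4+ T cell markers, 2 were called higher in SAS (19.8% of all genes were), 1 lower (17.7%) and 5 not. The higher ones were Cd5 (mean 678 CPM in SAS against 213 in ANT) and Cd28 (727 against 434). The lower one was Thy1 (248 against 917). CD8 T cell markers (2 genes) came to 1.99 to 4.49 CPM in SAS and 14.1 to 66.8 CPM in ANT. The ANT sum was nearly all Cd8b1, called lower in SAS (mean 2.42 against 33.6 CPM), while Cd8a (0.916 and 2.56 CPM) was not called. Natural killer markers (5 genes, Ncr1 at 0 in all libraries) came to 1.06 to 2.52 CPM in SAS and 9.30 to 21.2 CPM in ANT. In the natural killer list the ANT sum was nearly all Klrd1, called lower in SAS (56 counts over SAS libraries and 1494 over ANT libraries), while Klrb1c was called higher in SAS (96 and 4). Zbtb16 had 25 and 3 counts and was not tested. Myeloid markers (6 genes, with Cd14 at 0 counts in SAS and 1 in ANT) came to 2.00 to 5.68 and 0.662 to 1.45 CPM, and erythroid markers (5 genes) to 1.22 to 5.85 and 0.828 to 12.9 CPM. Of the 2 myeloid markers tested, Itgam was called higher in SAS (172 counts over SAS libraries and 41 over ANT libraries) and Lyz2 was not called. B cell markers (7 genes) came to 124 to 184 CPM in SAS and 639 to 689 CPM in ANT. Nearly all of that was Ighm, the constant gene of the antibody mu heavy chain. Gamma delta T cell markers (7 genes) came to 359 to 438 and 415 to 551 CPM, nearly all from Trdc, the delta constant gene. Of the 4 tested genes of that list, 3 were called higher in SAS (19.8% of all genes were), all with few counts. They were the gamma constant genes Tcrg-C2 (117 counts over SAS libraries and 8 over ANT libraries) and Tcrg-C4 (84 and 2), and the transcription factor gene Sox13 (79 and 10). Trdc was not called. The part of these cells in the Traj counts was not tested.

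Transcripts of the whole J array were present in both clones, at about the same summed level. Every segment had reads in every library, from 11 to 311 counts. Summed over the 60 segments, the level was 77.7, 146, 97.0 and 109 CPM in SAS replicates 1, 2, 3 and 6, and 94.98, 125, 117 and 106 CPM in ANT replicates 1, 3, 4 and 5. The groups overlapped, with means of 107 ± 28.8 CPM in SAS and 111 ± 13.2 CPM in ANT (SD, n = 4 each), and SAS held both the highest and the lowest library. In bulk samples, fewer cells that carry a transcript and less of it per cell cannot be told apart. Per kb of segment, the array averaged 30.1 ± 8.07 CPM over SAS libraries and 31.0 ± 3.69 CPM over ANT libraries. The 14 joining segments of the TCR beta chain stood at 739 ± 91.7 and 844 ± 13.5 CPM per kb. The 128 alpha variable segments (Trav) summed to 59.3 ± 1.93 CPM in SAS and 48.9 ± 11.0 CPM in ANT, or 1.24 ± 0.0404 and 1.03 ± 0.230 CPM per kb. Of the 18 Trav segments tested, 7 were called lower in SAS and 1 higher, the other way from the sum (17.7% and 19.8% of all genes).

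Along the array, the level followed a similar course in both clones (Spearman rho 0.86 between the mean profiles of SAS and ANT over 60 segments, a description only, since neighbouring segments share a transcript and all share the libraries). It was high at the upstream end, fell sharply after Traj58, stayed low to about Traj41 and then climbed slowly towards Trac. Traj40 in ANT stood out from this course.

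**Figure D1:**
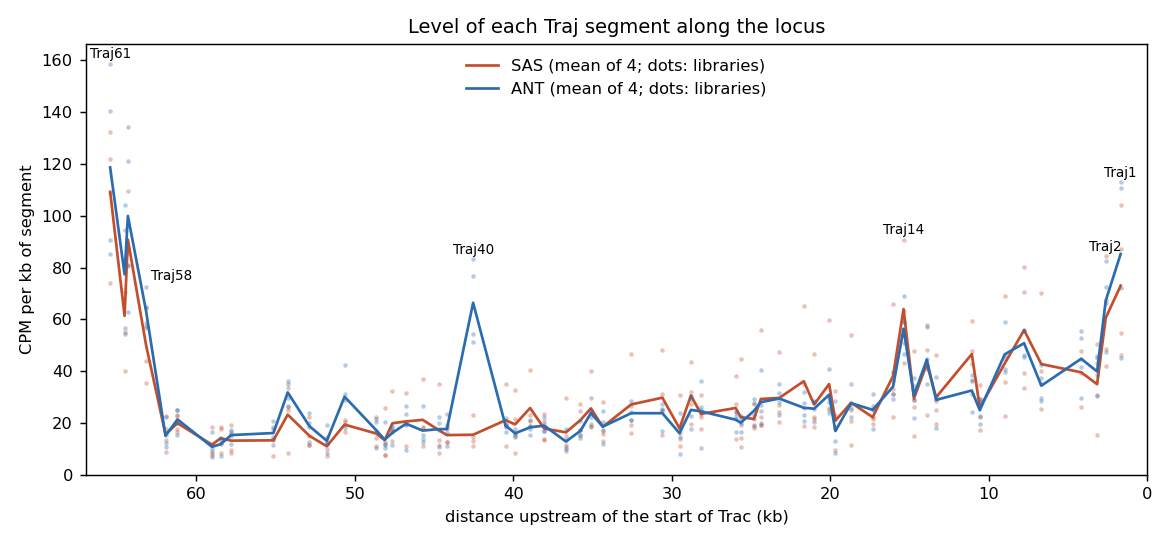
Level of each of the 60 Traj segments in CPM per kb (vertical axis) against the distance in kb upstream of the start of Trac (horizontal axis, 5′ end at the left). Lines join the means of the 4 SAS and the 4 ANT libraries and dots are single libraries; both lines start above 100 CPM per kb at Traj61, drop after Traj58 and rise towards Traj1, and only the ANT line has a peak at Traj40 (66.4 CPM per kb, against 15.5 in SAS).

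The 4 most upstream segments, Traj61 to Traj58, formed a stretch of high levels, which was set off after the values were seen. Traj61, a pseudogene, had the highest mean level in each clone, at 109, 74.0, 122 and 133 CPM per kb in SAS replicates 1, 2, 3 and 6 and 140, 159, 85.1 and 90.5 CPM per kb in ANT replicates 1, 3, 4 and 5. Per kb, Traj14, Traj1, Traj2, Traj59 and Traj6 lay above it in SAS replicate 2, and Traj1 in ANT replicates 4 and 5. By count, Traj61 was the largest segment in 7 of the 8 libraries. In SAS replicate 2 that place was taken by Traj2, with 3.82% of all Traj counts. Traj59, annotated as a joining gene, followed with 90.8 ± 12.8 CPM per kb in SAS and 99.9 ± 33.5 CPM per kb in ANT. The pseudogene Traj60, between them, stood lower, at 61.4 ± 17.4 and 77.4 ± 25.6 CPM per kb. Traj58, a joining gene, stood at 50.1 ± 12.8 and 63.3 ± 6.83 CPM per kb. All 4 overlapped between the clones.

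Within ANT the upstream stretch split the libraries into pairs. Its summed level was 105 and 119 CPM per kb in ANT replicates 1 and 3, and 73.0 and 67.6 CPM per kb in ANT replicates 4 and 5. SAS replicates 1, 2, 3 and 6 had 82.2, 58.9, 79.0 and 98.4 CPM per kb, with SAS replicate 2 the lowest of all 8. The 13 mitochondrial genes split ANT in the same way, summing to 26454 and 24901 CPM in replicates 1 and 3 and to 16901 and 15891 CPM in replicates 4 and 5. In SAS replicates 1, 2, 3 and 6 they summed to 19745, 15126, 19203 and 16725 CPM. SAS replicate 2 was thus lowest of all 8, but SAS replicate 6, the highest of SAS upstream, was not the highest here. Summed Trav segments and summed olfactory receptor genes were also higher in ANT replicates 1 and 3 than in 4 and 5. The nuclear RNAs Malat1 and Neat1 were lower in ANT replicates 1 and 3 than in 4 and 5. The part of any of these in the result was not tested. The direction of the difference between clones depended on these libraries for Traj59 and Traj60, with log2 fold changes (SAS minus ANT) of −0.14 and −0.33. Without ANT replicates 1 and 3 they were 0.33 and 0.15, and without ANT replicates 4 and 5 they were −0.51 and −0.71. These pairs were set by their levels at Traj61 to Traj58, so the shifts follow from that choice and are given as values only.

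From Traj58 to the next segment, Traj57, 1.16 kb downstream, the level dropped in every library. Traj57 stood at 8.90, 22.7, 17.5 and 13.3 CPM per kb in SAS and at 12.2, 15.3, 22.2 and 10.6 CPM per kb in ANT. The ratio of Traj58 to Traj57 was 1.57 to 6.35 in SAS and 2.91 to 5.42 in ANT. Both are joining genes with the J motif, and their lengths are 63 and 65 bases. From Traj57 to Traj41, 17 segments had a joint level of 16.3 ± 5.38 CPM per kb in SAS and 17.6 ± 3.31 CPM per kb in ANT. The upstream stretch stood at 2.51 to 7.85 times the level of these segments in SAS and at 3.42 to 7.76 times in ANT. The lowest mean over all 8 libraries was that of the pseudogene Traj55, at 11.6 ± 4.996 CPM per kb in SAS and 10.8 ± 4.10 CPM per kb in ANT. In SAS the joining gene Traj49 was lower still, at 11.002 CPM per kb.

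Downstream of the low stretch the level climbed. Segments Traj20 to Traj1 had 38.8 ± 13.7 CPM per kb in SAS and 37.9 ± 6.35 CPM per kb in ANT, which was 2.10 to 2.59 times the level of Traj57 to Traj41 in SAS libraries and 1.98 to 2.41 times in ANT libraries. Over the 56 segments from Traj57 to Traj1, Spearman's rho between order along the locus and CPM per kb was 0.76 to 0.80 in the 4 SAS libraries and 0.66 to 0.75 in the 4 ANT libraries. With CPM not divided by length it was 0.72 to 0.80 and 0.63 to 0.73, so the climb did not rest on the scaling by length. The start at Traj57 was set after the values were seen. Over all 60 segments, with the high upstream stretch taken in, rho with CPM per kb was 0.43 to 0.60 in SAS and 0.35 to 0.45 in ANT. These values describe segments that share transcripts, and have no test. The rho between GC content and level over the same 56 segments was −0.06.

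The segments nearest to Trac had the highest levels of the downstream part. Traj2, a joining gene, had 48.5, 84.5, 41.8 and 67.7 CPM per kb in SAS and 47.6, 66.3, 82.5 and 72.6 CPM per kb in ANT. Traj1, a pseudogene of 29 bases, had 46.2, 87.0, 54.7 and 104 CPM per kb in SAS and 45.2, 72.2, 111 and 113 CPM per kb in ANT. The clones overlapped for both. Traj6 stood at 55.9 ± 23.0 and 50.8 ± 5.66 CPM per kb, Traj7 at 43.0 ± 19.5 and 46.5 ± 8.90 CPM per kb, and Traj12 at 42.9 ± 14.7 and 44.5 ± 9.27 CPM per kb, and these 3 joining genes were also among the 10 highest. The pseudogene Traj14, of 34 bases, was a local peak at 64.0 ± 19.9 and 56.4 ± 9.91 CPM per kb. By CPM not divided by length, Traj14 ranked at 16 and Traj1 at 14 of the 60, against 6 and 3 by CPM per kb. Away from the upstream stretch, the median level was 23.7 CPM per kb for 49 joining genes and 25.4 for 7 pseudogenes, or 1.42 and 1.16 CPM before division by length.

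**Figure D2:**
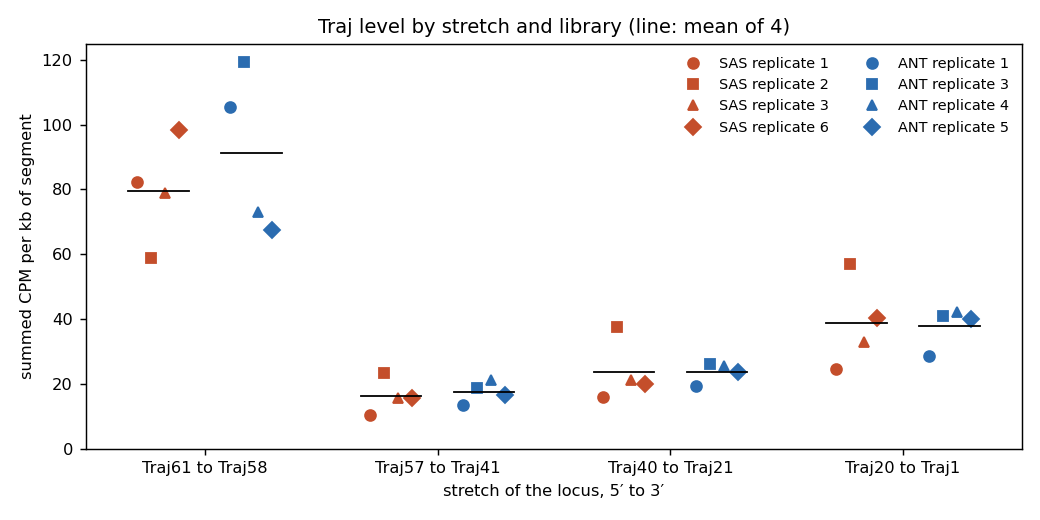
Summed level of the Traj segments in 4 stretches of the locus, in CPM per kb of segment, for each SAS and ANT library (symbols) with the group mean (line). ANT replicates 1 and 3 lie above the other libraries at Traj61 to Traj58, and SAS replicate 2 is the lowest there and the highest in the 3 other stretches.

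Single libraries set much of the spread downstream. SAS replicate 2 had the highest CPM of all 8 libraries for 39 of the 56 segments from Traj57 to Traj1, and SAS replicate 1 the lowest for 28. In ANT, replicate 1 was the lowest of the 4 for 44 of these segments. Summed over Traj20 to Traj1 the level was 26.7, 61.5, 35.5 and 43.7 CPM in SAS replicates 1, 2, 3 and 6, and 30.8, 44.3, 45.5 and 43.2 CPM in ANT replicates 1, 3, 4 and 5. Malat1, an abundant RNA that stays in the nucleus, was also highest in SAS replicate 2, at 3877 CPM, against 2166, 2677 and 2311 CPM in SAS replicates 1, 3 and 6 and 2045, 2504, 2955 and 2781 CPM in ANT replicates 1, 3, 4 and 5. Its lowest level was in ANT replicate 1, followed by SAS replicate 1. Neat1, another nuclear RNA, was highest in ANT replicates 4 and 5, at 585 and 525 CPM, against 457 CPM in SAS replicate 2. The lowest level of Neat1 was in SAS replicate 1, at 273 CPM. The part of nuclear RNA in these differences was not tested.

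With Traj40 counted, the shares of the array differed between clones by less than 1 SD. Traj61 to Traj41 held 35.5% ± 6.08 of all Traj counts in SAS and 37.3% ± 4.75 in ANT, Traj40 to Traj21 held 26.2% ± 3.78 and 25.9% ± 1.003, and Traj20 to Traj1 held 38.3% ± 3.49 and 36.9% ± 3.77 (SD, n = 4 each). Without Traj40 the middle share in ANT was 23.0%. The segments other than Traj40 held 99.1% of all Traj counts in SAS and 96.3% in ANT on average, so leaving Traj40 out lowers the ANT share more.

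Traj40 was the one segment that separated the clones. It is a joining gene (ENSMUSG00000076890.1, chr14:54177921-54177981, 61 bases, 1 exon) whose sequence is printed above with those of its neighbours. Traj40 had 22, 40, 26 and 25 counts in SAS replicates 1, 2, 3 and 6, and 136, 85, 141 and 96 counts in ANT replicates 1, 3, 4 and 5. Every ANT library lay above every SAS library. In CPM per kb these were 11.0, 23.0, 14.7 and 13.2 in SAS and 76.9, 51.2, 83.3 and 54.2 in ANT. The log2 fold change was −2.10 with a standard error (SE) of 0.29, a 95% interval of −2.75 to −1.45, and an adjusted p of 0.000297 (edgeR's quasi-likelihood test, Benjamini-Hochberg adjustment over 12619 genes). This pattern of Traj40 was known before these tests were run. In all 17 alternative fits Traj40 was called lower in SAS, with log2 fold changes of −2.36 to −1.97.

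The segments on either side of Traj40 overlapped between the clones. Traj41, next upstream, stood at 15.3 ± 3.12 CPM per kb in SAS and 17.6 ± 5.19 CPM per kb in ANT, and Traj39, next downstream, at 21.1 ± 10.1 and 19.0 ± 2.19 CPM per kb. Traj41 lies 1.60 kb from Traj40 and Traj39 lies 1.98 kb from it. The ratio of Traj40 to the mean of both was 0.921, 0.859, 0.912 and 0.734 in SAS replicates 1, 2, 3 and 6, and 4.34, 2.69, 3.68 and 3.92 in ANT replicates 1, 3, 4 and 5. In each SAS library, Traj40 thus lay a little below the mean of its neighbours, and in each ANT library well above it. Set against the median of the 2 segments on each side, 1 segment exceeded 2 times that level in every ANT library (Traj40, at 3.83 times on average and 2.69 times in the lowest library), and 0 segments did so in every SAS library. The highest mean ratio in SAS was 1.97, at Traj14. Trac was lower in SAS as well (log2 fold change −0.65). The part of construct transcripts in the Traj40 counts was not tested.

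**Figure D3:**
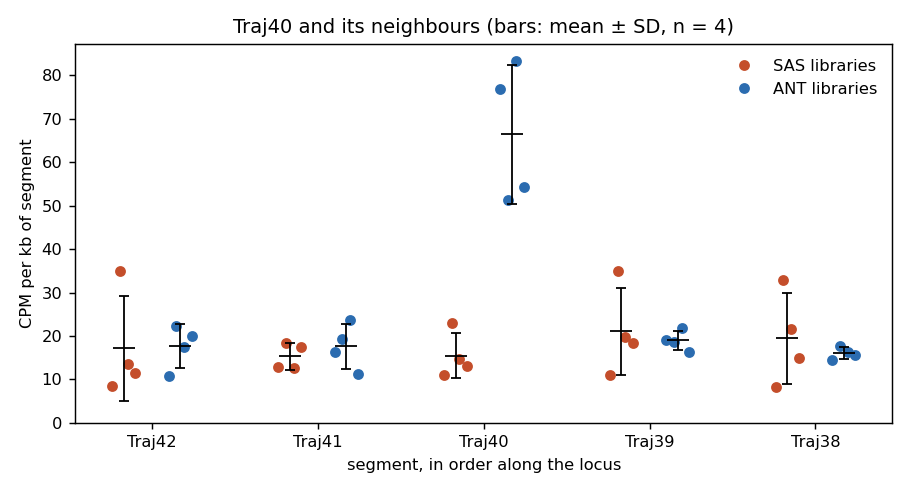
Traj40 and the 2 segments on each side, in locus order, with the level in CPM per kb of each SAS and ANT library (dots) and the mean ± SD of 4 (bars). The 4 ANT libraries at Traj40 lie between 51.2 and 83.3 CPM per kb, above all SAS libraries, while the clones overlap at the other 4 segments.

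Among all segments, 1 of 60 was called between the clones (adjusted p under 0.05, 1.67%), against 37.4% of the 12619 genes tested. That one was lower in SAS, against 17.7% of all genes, and 0 were higher, against 19.8%. Likewise 1 of 60 had groups that did not overlap, against 38.1% of all genes. It was lower in SAS, against 17.7% of all genes, and 0 were higher without overlap, against 20.5%. At an unadjusted p under 0.05 there were 2, Traj40 and Traj48. Of the 59 segments not called, 32 had a log2 fold change above 0 and 27 below it, from −0.64 to 0.52, with adjusted p from 0.105 to 0.992. Their SE ran from 0.22 to 0.45. For 39 of the 59 the 95% interval lay within 1 of 0 on the log2 scale, and for 20 it reached past that. The median log2 fold change of the 60 segments was 0.03, against −0.00 (−0.00318) for all genes tested. It was −0.22 without SAS replicate 2, where 10 of 60 were above 0, and 0.21 without SAS replicate 1.

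**Figure D4:**
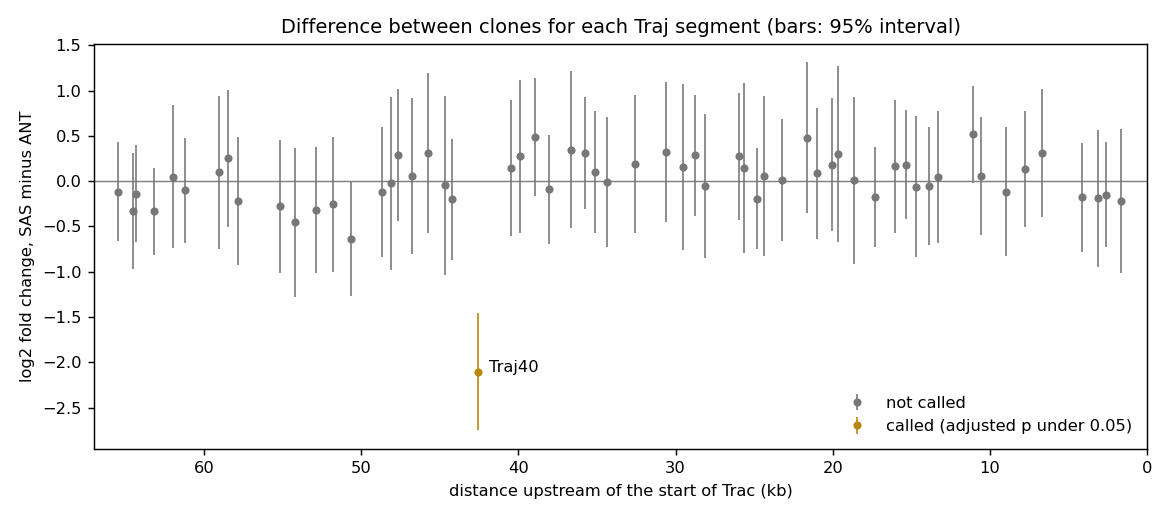
Log2 fold change (SAS minus ANT) of each of the 60 Traj segments with its 95% interval, against the distance in kb upstream of the start of Trac. The point for Traj40, at −2.10, is the only one called, and the other 59 lie between −0.64 and 0.52.

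The next largest differences were those of Traj48 and Traj9, both joining genes. Traj48 had 33, 37, 34 and 39 counts in SAS and 32, 48, 72 and 55 counts in ANT. The clones overlapped in ANT replicate 1 alone, and the log2 fold change was −0.64 (SE 0.28, edgeR adjusted p 0.105). It was −0.82 and called without ANT replicate 1 (adjusted p 0.0438), and −0.93 and called without ANT replicates 1 and 3 (adjusted p 0.0466). No other alternative fit called Traj48. Without ANT replicates 4 and 5 its log2 fold change was −0.30 (edgeR adjusted p 0.505). With the replicate number as a block it was −0.37 (edgeR adjusted p 0.495). Traj9 had 70, 98, 72 and 86 counts in SAS and 41, 49, 62 and 61 counts in ANT. In CPM per kb the lowest SAS library (36.8) lay below the highest ANT library (38.5), and the log2 fold change was 0.52 (SE 0.24, edgeR adjusted p 0.118). Its level relative to the 2 segments on each side was 1.35 ± 0.27 in SAS and 0.90 ± 0.13 in ANT. Traj58 had a log2 fold change of −0.34 (SE 0.22, edgeR adjusted p 0.257).

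Around the array, reads of the delta genes upstream of it were present in both clones, at levels that differed widely between these genes. Trdc had 113, 91.7, 105 and 101 CPM per kb of exon in SAS and 142, 108, 115 and 107 CPM per kb in ANT (log2 fold change −0.20, edgeR adjusted p 0.212). Its end lies 6.14 kb before Traj61. The diversity segments Trdd2 and Trdd1 stood at 70.3 and 16.8 CPM per kb in SAS and at 84.5 and 21.1 CPM per kb in ANT. The variable segments Trdv5 and Trdv4 were low, at 6.90 and 0.527 CPM per kb in SAS and 7.25 and 0.416 CPM per kb in ANT. The delta joining segment Trdj1 stood at 135 ± 24.0 and 131 ± 17.3 CPM per kb, and Trdj2 at 81.0 ± 9.68 and 63.1 ± 8.29 CPM per kb (adjusted p 0.881 and 0.137). Trac, downstream, stood at 216 ± 9.36 CPM per kb in SAS and 341 ± 23.3 CPM per kb in ANT with an SE of 0.09 and an edgeR adjusted p of 0.000293 for its log2 fold change. Of the 11 genes listed around the array, 9 were tested, 1 was higher in SAS and 1 lower, against 19.8% and 17.7% of all genes. The higher one was Abhd4, which encodes a lipid hydrolase. It averaged 10.8 ± 2.33 CPM among SAS libraries and 1.93 ± 0.457 CPM among ANT libraries, a log2 fold change of 2.47 (SE 0.22) with an edgeR adjusted p of 1.47e-05. Dad1, which lies between Trac and Abhd4 and takes part in protein glycosylation, stood at 67.9 ± 8.06 and 67.5 ± 9.47 CPM (adjusted p 0.967).

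The machinery that joins V and J segments was represented mainly by its repair part. Rag1 and Rag2, which encode the recombinase, had 2 and 0 counts in the 4 SAS libraries together and 0 and 0 in ANT, and were not tested. Of 14 tested genes for recombination and end joining, 2 were higher in SAS, 4 lower and 8 not called, so that 6 of 14 were called, against 37.4% of all genes. Dntt, the polymerase that adds nucleotides at the joints, was lower in SAS, with 161 counts against 8418 in ANT (log2 fold change −5.80, edgeR adjusted p 4.96e-08). The damage kinase Atm was lower too (−0.53, adjusted p 0.0035). Dclre1c, which encodes the nuclease Artemis that opens the hairpin ends, was higher in SAS, with 41.1 ± 3.22 CPM against 25.7 ± 2.64 CPM in ANT (0.68, adjusted p 0.000795). The median log2 fold change of the 14 genes was −0.06.

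Of 24 listed regulators of the alpha enhancer and J promoters, all tested, 7 were higher in SAS (19.8% of all genes were), 1 was lower (17.7%) and 16 were not called, with a median log2 fold change of 0.05. The 3 with the smallest p were Myb, a factor of thymocytes and of activated T cells, at 784 against 46.9 CPM (log2 fold change 4.06), and Egr3 and Egr2, factors induced by TCR signals (4.73 and 3.82). Ets1, which binds the alpha enhancer, stood at 2241 and 2308 CPM in SAS and ANT (−0.04, edgeR adjusted p 0.820), and Tcf7 at 1870 and 1804 CPM (0.05, adjusted p 0.862). Of 8 tested genes of the receptor complex, 2 were lower in SAS, Trac and the beta constant gene Trbc1 (−0.32, adjusted p 0.0450), and 6 were not called. Of all genes, 17.7% were lower in SAS. The call of Trbc1 was lost in 10 of the 17 alternative fits.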

How the data were processed

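Strand-specific mRNA libraries were made from the sorted cells with Illumina's TruSeq protocol, per the labels' protocols. The deposited values are raw counts of 39056 Ensembl IDs in 8 libraries. Reads were processed with STAR and featureCounts on mm10, according to the submitters' processing notes. How multimapping reads and strand were handled, the gene models and the software versions are not given in the sources used here. IDs were matched without version suffix to GENCODE M21, on the same build (38872 matched, 184 did not), which supplied symbols, coordinates, exon lengths and segment sequences.

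All genes that passed edgeR's default low-count filter (12619) were fitted with edgeR 4.0.16 in R 4.3.3, with TMM scaling and the robust quasi-likelihood test of SAS against ANT on all 8 libraries, without covariates. Benjamini-Hochberg adjustment ran over all of them, with calls at an adjusted p under 0.05. The SE of a log2 fold change was derived from its F statistic. Sums over segments, shares, ratios and rank correlations are descriptions without tests. The fit was checked on simulated counts.

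The members and lists were chosen with earlier results of these data known. Described singly were called segments and those next to them, the 10 highest by CPM per kb, the one with the most counts in each library, called genes of the locus list, and the 3 with the smallest p in each other list. Traj48, Traj9, Traj57, Traj55 and further genes were added after their values were seen. The alternatives were other scalings and filters, DESeq2 1.42.0, limma-voom (limma 3.58.1), a replicate block and leaving libraries out.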

Additional observations from a re-analysis of the deposited data

Results flagged for a closer look

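In ANT replicate 1 the summed level of Traj20 to Traj1 was 30.8 CPM, far below the other 3 ANT libraries, of which the nearest had 43.2 CPM. The gap was 0.844 of the range of the 4 libraries, past the 95% limit of Dixon's test for an outlying sample. This was 1 of 42 groups of 4 libraries examined (15 segments and 6 sums in each clone), and chance flags about 1 in 20 groups.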

How the results depend on the processing

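Traj40 was called lower in SAS under each of the 17 alternatives. The number of called segments was 1 in 14 of them. It was 2 without ANT replicates 4 and 5 and also 2 without ANT replicates 1 and 3, both chosen after seeing the data, by the levels of Traj61 to Traj58 (the call gained without ANT replicates 4 and 5, Traj59, is one of these segments), and ranged from 1 to 2 when single libraries were left out. The log2 fold change of Traj59 turned to 0.33 without ANT replicates 1 and 3 and to 0.0303 without ANT replicate 3 (from −0.32 to 0.0303 when single libraries were left out), and that of Traj60 to 0.15 without ANT replicates 1 and 3. The cause was not tested. The count of called receptor complex genes, 2, was 1 with library size only, 1 with no low-count filter, 1 without ANT replicates 1 and 3, 5 without ANT replicates 4 and 5, and 1 to 3 when single libraries were left out. With the replicate number as a block it was 5, and the block called 1 Traj segment (Traj40, log2 fold change −2.30) among 5798 genes. Both clones share numbers 1 and 3 only, and the deviations of same-numbered libraries from their group means correlated at 0.29 and −0.12 over 12619 genes, so the numbers were not taken as pairs. The counts of called genes in the 3 other lists stayed within 1.5 times of the main ones.

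With segments annotated as joining genes only, Traj61 to Traj41 held 27.4% of counts in SAS and 29.1% in ANT, and Traj40 to Traj21 held 31.1% and 30.9%. Of the 9 pseudogenes left out, 5 lie upstream of Traj40. The ANT share of Traj40 to Traj21 was 23.0% without Traj40 and 24.5% with zones of equal length. Single segments had 11 to 311 counts a library, and the 95% intervals of 20 of them reached past 1 on the log2 scale. Counting error and spread between libraries were not separated.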

Other observations

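Joining segments of the antibody heavy chain locus, chosen after their values were seen, were lower in SAS. The 4 Ighj segments together had 12, 14, 7 and 4 counts in SAS replicates 1, 2, 3 and 6, and 246, 206, 203 and 167 counts in ANT replicates 1, 3, 4 and 5. All 4 were called lower in SAS, as were 17.7% of all genes tested. The log2 fold changes were −4.51 for Ighj1, −3.95 for Ighj2 and −4.28 for Ighj4. For each of the 4, edgeR's adjusted p was 0.00022 or less. Ighj3 had 1, 0, 0 and 1 counts in SAS and 44, 48, 32 and 44 in ANT. Ighm, the constant gene downstream of them, was lower in SAS too, at 150 against 665 CPM (log2 fold change −2.15). Pax5, a factor that B cells need, had 11 counts in the 4 SAS libraries together and 25 in ANT. The 5 kappa joining segments (Igkj) together had 6, 21, 4 and 0 counts in SAS and 4, 4, 4 and 17 counts in ANT, and were not tested. The part of B cells in the Ighj counts was not tested.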
